A study of Mus musculus with 12 samples.

Results

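The genes of gluconeogenesis and its regulators were followed through primary cultured mouse hepatocytes that had been exposed to benzbromarone (BBR, a uric acid-lowering drug) with or without oleic acid (OA, a fatty acid used to load hepatocytes with lipid). The set was chosen by gene symbol and held 10 genes, Pcx, Gpt, Gpt2, Pck1, Fbp1, Fbp2, G6pc, Slc37a4, Ppargc1a and Irs2, of 22471 features measured. All 10 symbols were found in every library. The study compared 4 groups of 3 RNA sequencing libraries: control (labelled Con), 0.2 mM OA (ConOA), 15 µM BBR (BBR), and 15 µM BBR with 0.2 mM OA (BBROA, written BBR+OA here). Hepatocytes came from male C57BL/6J mice of 6 weeks and were treated for 16 h, and all groups shared culture in DMEM with fetal bovine serum. OA had been mixed with bovine serum albumin, and whether the cells without OA received albumin is not stated. The labels give the tissue as liver and leave unstated if the libraries of a group are from different mice or different wells, so that the p-values below measure the spread between these libraries only.

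Gluconeogenesis is the synthesis of glucose from lactate, alanine, glycerol and other small precursors, and in the liver it sustains blood glucose during fasting. It runs glycolysis backwards except at the steps that are irreversible, which have enzymes of their own. Pyruvate carboxylase and PEP carboxykinase bypass pyruvate kinase, fructose bisphosphatase bypasses phosphofructokinase, and the glucose-phosphatase system of the endoplasmic reticulum bypasses the first step of glycolysis. Glucagon (through cAMP and CREB), glucocorticoids, FOXO1 and the coactivator encoded by Ppargc1a are known to raise transcription of several of these enzymes, and insulin, through its receptor substrates, is known to lower it.

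Total counts per library ranged from 15485508 to 23668379. All 12 pairs of libraries within groups differed beyond counting noise. In a principal component analysis of all genes passing a low filter, the first component (49.4% of the variance) separated libraries with OA from those without. Of 9 hepatocyte markers 8 were found, none of them at 0, with summed levels of 34904 to 36410 CPM (counts scaled to library size by the TMM method) in control, 35205 to 36770 in BBR, 41532 to 42865 in OA and 42854 to 44869 in BBR+OA. Kupffer cell markers summed to between 101 and 123 CPM in the control, OA and BBR+OA libraries and to 141 to 182 CPM in the BBR libraries, which stood above all the others. All 10 Kupffer markers were detected, and most of the sum was Cd68, a macrophage lysosomal protein, at a mean of 131 CPM in BBR and 80.0 in control. For BBR against control 1 of the 10 was called higher and 1 lower (median log2 fold change 0.10). With OA against control, 3 of the 10 rose and 6 fell (median log2 fold change -0.53), among them the macrophage receptor Marco (2.51, adjusted p = 1.43e-07) and the Kupffer cell lectin Clec4f (-1.28, adjusted p = 0.0113). In BBR-treated cells 3 rose and 3 fell with OA (median -0.28). The 6 cholangiocyte markers, with Cftr at 0 in control and BBR and Krt7 at 0 in control, summed to 54.6 to 59.8 CPM in control, 73.1 to 82.1 in BBR, 65.5 to 84.4 in OA and 62.4 to 70.4 in BBR+OA. The 7 endothelial markers summed to 56.0 to 58.0 CPM in control, 62.0 to 68.7 in BBR, 50.1 to 64.5 in OA and 60.9 to 61.9 in BBR+OA. The 7 stellate cell markers summed to between 17.7 and 25.4 CPM in all libraries. The part of these markers in the results below was not tested, and in bulk RNA fewer cells of a type and less RNA per cell cannot be told apart.

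To ask which gluconeogenic genes the drug changed without added lipid, BBR was compared with control. BBR lowered 6 of the 10 genes: G6pc, Slc37a4, Gpt2, Gpt, Fbp1 and Pcx, which act on alanine and pyruvate, at fructose bisphosphatase and in the release of glucose. It raised 1, Fbp2, and no difference passed the test for Pck1, Ppargc1a and Irs2. Over all 12555 genes tested, 27.7% were called at an adjusted p-value under 0.05 (13.2% higher and 14.5% lower), by edgeR's quasi-likelihood test with Benjamini-Hochberg adjustment, which is the test used throughout. The libraries of BBR and control were fully apart in 7 of the 10 genes, against 41.5% of all genes. The median log2 fold change over the 10 genes was -0.37, and -0.00085 over all genes tested. Of the 7 changed genes, 2 (G6pc and Fbp2) changed by at least 2-fold.

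The same question was then asked in OA-loaded cells, by comparing BBR+OA with OA. Here Fbp2 was the 1 gene of the 10 that passed the test, and it rose, where 4.59% of 12278 genes were called over the whole table (1.95% higher and 2.63% lower). Fbp2 and Irs2 had BBR+OA libraries above, and Pcx and Gpt below, every OA library, so that 4 of the 10 did not overlap, against 23.9% of all genes. In this edgeR fit none of the 10 was called lower, and at an unadjusted p under 0.05 it gave 2 higher and 2 lower. DESeq2 called 2 higher and none lower. The median log2 fold change over the 10 genes was -0.01.

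OA itself was compared with control to ask what lipid loading changed without the drug. Lipid loading raised 5 of the genes (Pck1, Irs2, Slc37a4, Gpt2 and Gpt) and lowered 3 (Ppargc1a, Pcx and Fbp1), and no difference passed the test for G6pc and Fbp2. Over all 12418 genes, 42.8% were called (21.3% higher and 21.5% lower), and 52.2% had no overlap between the groups. With the drug present, BBR+OA against BBR, all 10 genes were called: 7 were higher (Irs2, Gpt2, Pck1, Slc37a4, G6pc, Fbp2 and Gpt) and 3 lower (Ppargc1a, Pcx and Fbp1), where 38.9% of 12416 genes were called (20.1% higher and 18.8% lower) and 49.7% did not overlap. The median log2 fold change of the 10 genes was 0.10 for OA against control and 0.79 for BBR+OA against BBR, and it was -0.01 over all genes in each. These comparisons share groups with each other, so that agreement between them is not independent.

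**Figure D1:**
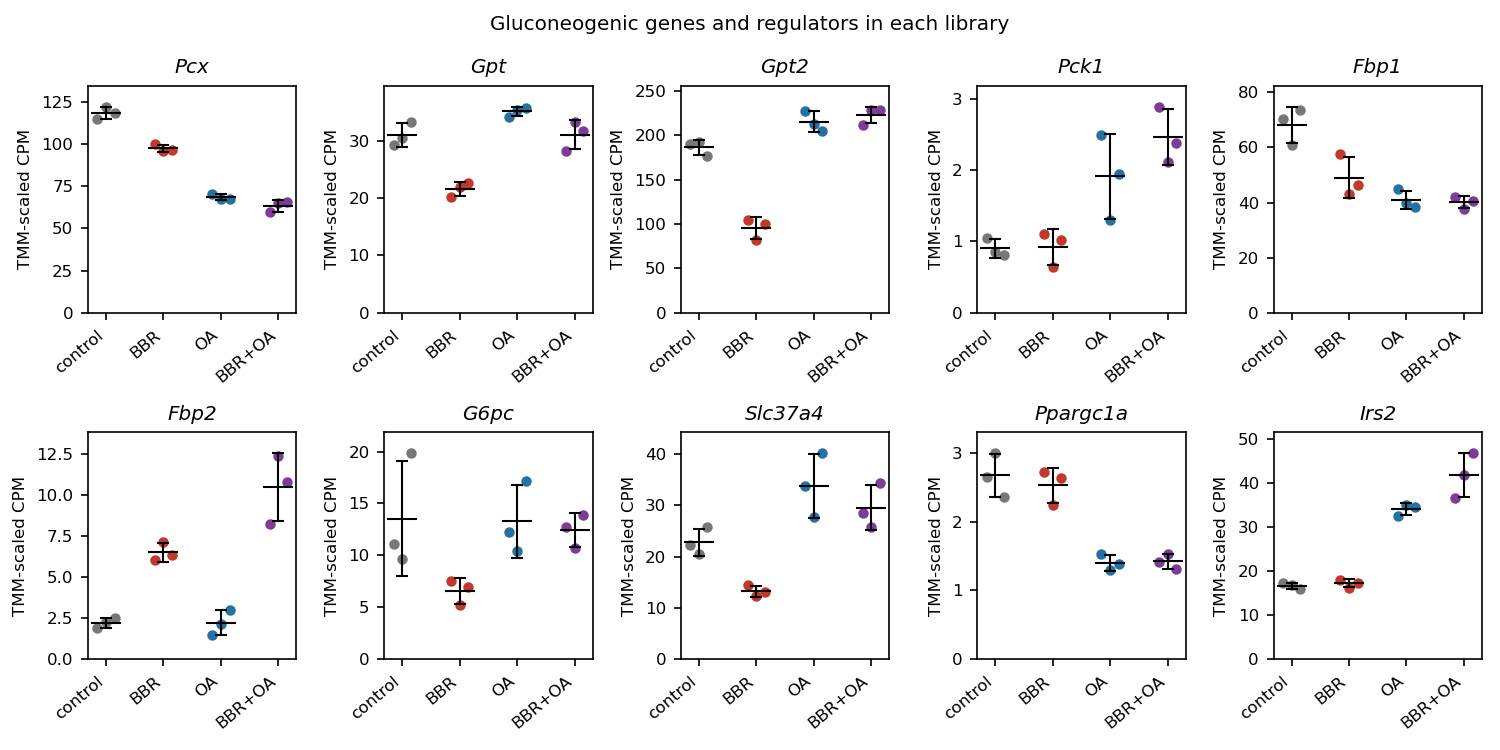
TMM-scaled CPM (y axis, from 0, a separate scale for each gene) of the 10 genes in the 3 libraries of each group (x axis), with points for libraries and black bars for the mean ± SD. Gpt2, Gpt, Slc37a4 and G6pc were lowest in the BBR libraries, Fbp2 was highest in the BBR+OA libraries, and Pcx, Fbp1 and Ppargc1a were lower with OA than in control.

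The first group of genes brings pyruvate and alanine into the pathway. Pcx (ENSMUSG00000024892, GRCm38 chromosome 19, 4510472 to 4621752, plus strand) encodes the mitochondrial pyruvate carboxylase, which makes oxaloacetate from pyruvate. Its level was 115, 122 and 118 CPM in the 3 control libraries and 100.1, 96.0 and 96.7 in BBR. With OA it was 70.7, 67.7 and 67.5 CPM, and with BBR+OA it was 59.5, 64.8 and 65.7. The 4 groups did not overlap, and the order was control, BBR, OA and BBR+OA from high to low. Differences between groups are given from here on as log2 fold changes, with an approximate SE derived from the F statistic of the test. For Pcx the difference was -0.27 with BBR (SE 0.05, adjusted p = 3.00e-04) and -0.78 with OA (SE 0.05, adjusted p = 2.83e-08). In BBR-treated cells it was lower with OA (-0.63, SE 0.05, adjusted p = 2.15e-07). In OA-loaded cells the BBR difference was -0.12 (SE 0.05) and did not pass (adjusted p = 0.255), although the libraries did not overlap. The gene Lrfn4 lies within Pcx on the opposite strand and had 107 counts over the 12 libraries, and whether counting used strand is not stated.

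Gpt and Gpt2 encode the cytosolic and the mitochondrial alanine transaminase, which turn alanine into pyruvate. Gpt2 (ENSMUSG00000031700, chromosome 8, 85492576 to 85527560, plus strand) measured 191, 192 and 177 CPM in control and 105, 81.4 and 99.8 in BBR. It measured 228, 213 and 205 CPM in OA and 212, 228 and 228 in BBR+OA. The BBR libraries lay far below all the others, and those of OA and BBR+OA overlapped. BBR lowered Gpt2 to 0.515 of its control level, a log2 fold change of -0.96 with an SE of 0.07 (adjusted p = 9.27e-08). With OA present the BBR difference was 0.05 (SE 0.05, adjusted p = 0.680). OA raised Gpt2 by 0.21 (SE 0.05, adjusted p = 0.00591) without BBR and by 1.22 (SE 0.07, adjusted p = 1.30e-08) with it.

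Gpt (ENSMUSG00000022546, chromosome 15, 76695716 to 76699686, plus strand) followed a like course over a smaller range. It measured 29.2, 30.5 and 33.2 CPM in control and 20.2, 22.0 and 22.6 in BBR. It measured 34.1, 35.4 and 35.7 CPM in OA and 28.3, 33.2 and 31.7 in BBR+OA. The BBR libraries were again below all the others, and the control and BBR+OA libraries overlapped. BBR lowered Gpt (-0.52, SE 0.07, adjusted p = 5.16e-05), and the difference with OA present was -0.18 (SE 0.07, adjusted p = 0.162). OA raised it by 0.52 (SE 0.08, adjusted p = 7.86e-05) in BBR-treated cells. The rise with OA alone, 0.18 (SE 0.07, adjusted p = 0.0345), was lost under 6 of 12 alternatives, among them DESeq2, upper quartile scaling and the removal of control replicate 1 or 2 or of OA replicate 2 or 3, with values of 0.15 to 0.18 without those libraries and adjusted p from 0.00632 to 0.131 over all alternatives. Per unit of length (deposited FPKM, a fragment count scaled by library depth and transcript length), Gpt made up 25.7% ± 2.11 (SD, n = 3) of the summed Gpt and Gpt2 level in control, 32.2% ± 3.69 in BBR, 25.4% ± 1.45 in OA and 22.5% ± 0.762 in BBR+OA.

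Pck1 (ENSMUSG00000027513, chromosome 2, 173153048 to 173159273, plus strand) encodes the cytosolic PEP carboxykinase, which makes phosphoenolpyruvate from oxaloacetate and is widely read as the fasting-induced gene of the pathway. It was weakly measured in these cultures, with 10 to 57 counts per library. Its level was 1.05, 0.856 and 0.802 CPM in control and 1.11, 0.641 and 1.02 in BBR. In OA it was 2.50, 1.30 and 1.94 CPM, and in BBR+OA 2.89, 2.12 and 2.38. All 6 libraries with OA lay above all 6 without it, and BBR and control overlapped. OA raised Pck1 by 1.09 (SE 0.29, adjusted p = 0.00756) without BBR and by 1.38 (SE 0.26, adjusted p = 8.34e-04) with it. The BBR differences were 0.07 (SE 0.31, adjusted p = 0.884) without OA and 0.37 (SE 0.25, adjusted p = 0.467) with it, and at this depth their standard errors do not fix a sign. Pck2, the mitochondrial isozyme, was measured at 40.6, 35.3, 45.5 and 48.7 CPM on average in control, BBR, OA and BBR+OA. BBR lowered Pck2 (-0.19, SE 0.07, adjusted p = 0.0448), and OA raised it by 0.46 (SE 0.07, adjusted p = 1.17e-04) in BBR-treated cells.

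The next step, fructose bisphosphatase, has a pair of genes that lie next to each other on the minus strand of chromosome 13, 6330 bases apart. Fbp1 (ENSMUSG00000069805, 62864753 to 62888282) encodes the liver enzyme. It measured 70.2, 60.8 and 73.7 CPM in control and 57.5, 43.1 and 46.5 in BBR. It measured 44.7, 39.7 and 38.4 CPM in OA and 42.0, 37.7 and 40.5 in BBR+OA. The control libraries were the highest, and the OA and BBR+OA libraries overlapped. Fbp1 fell with BBR (-0.46, SE 0.09, adjusted p = 8.41e-04) and with OA (-0.73, SE 0.08, adjusted p = 3.11e-06). With OA present the BBR difference was -0.03 (SE 0.07, adjusted p = 0.844). OA lowered Fbp1 in BBR-treated cells (-0.30, SE 0.09, adjusted p = 0.0130), a call that was lost without BBR replicate 1 (-0.17, adjusted p = 0.0621) and without BBR+OA replicate 2 (-0.26, adjusted p = 0.0624), the largest adjusted p over its 12 alternatives.

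Fbp2 (ENSMUSG00000021456, 62836877 to 62858422) encodes the isozyme known from skeletal muscle, and it moved the other way. Its level was 1.90, 2.24 and 2.49 CPM in control and 6.04, 7.11 and 6.34 in BBR. In OA it was 1.47, 2.17 and 3.01 CPM, and in BBR+OA 8.26, 12.4 and 10.8. Every library with BBR lay above every library without it, and every BBR+OA library lay above every BBR library, while OA and control overlapped. BBR raised Fbp2 2.92-fold in cells without OA, by 1.55 in log2 (SE 0.16, adjusted p = 3.02e-06), and 4.65-fold in cells with OA (adjusted p = 2.47e-05). OA raised it by 0.69 (SE 0.15, adjusted p = 0.00179) in BBR-treated cells, and its difference without BBR was 0.01 (SE 0.25, adjusted p = 0.967). As a share of the summed Fbp1 and Fbp2 level per unit of length (FPKM), Fbp2 made up 3.44% ± 0.507 (SD, n = 3) in control, 5.66% ± 2.21 in OA, 12.8% ± 2.48 in BBR and 22.2% ± 4.36 in BBR+OA. Fbp1 thus remained the larger in every group.

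Because Fbp2 is best known from muscle, 7 skeletal muscle markers were read beside it. Mb, Myh1 and Tnnt3 were at 0 in all 12 libraries, Ckm and Myh4 were at 0 in all but 2 and 1 of them, and Pygm stayed at or under 0.512 CPM. Acta1, the skeletal actin gene, was the marker that was present, at means of 9.95 CPM in control, 12.1 in BBR, 15.3 in OA and 25.2 in BBR+OA. It rose with OA (0.62, adjusted p = 0.00208), with BBR in OA-loaded cells (0.72, adjusted p = 0.00574) and with OA in BBR-treated cells (1.05, adjusted p = 1.30e-04), and for BBR against control the difference was 0.29 (adjusted p = 0.216). Summed over the 7 markers the level was 8.02 to 12.4 CPM in control, 10.3 to 16.1 in BBR, 13.3 to 16.6 in OA and 19.6 to 29.5 in BBR+OA. Kidney, another tissue with gluconeogenesis, was read through 6 proximal tubule markers, of which Slc34a1, Slc22a6 and Slc5a2 were at 0 in all libraries and the sum was at most 1.25 CPM.

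The sequences just before the start sites of the genes are shown for the members that parted most clearly: the fructose bisphosphatase pair, which moved in opposite directions with BBR, Pck1, which followed OA, and Gpt2, whose fall with BBR was absent from the OA-loaded comparison. They are from RefSeq (GRCm38.p6), each on the gene's own strand, ending at the base before the first annotated transcript start, with matches to the motifs named after them in capitals.
Fbp1, chr13:62888283-62888532, minus strand: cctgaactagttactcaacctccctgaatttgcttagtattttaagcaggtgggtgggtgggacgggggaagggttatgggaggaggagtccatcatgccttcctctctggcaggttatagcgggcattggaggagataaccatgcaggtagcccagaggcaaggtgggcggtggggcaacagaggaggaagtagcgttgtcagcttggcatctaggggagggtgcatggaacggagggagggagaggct
Fbp2, chr13:62858423-62858650, minus strand: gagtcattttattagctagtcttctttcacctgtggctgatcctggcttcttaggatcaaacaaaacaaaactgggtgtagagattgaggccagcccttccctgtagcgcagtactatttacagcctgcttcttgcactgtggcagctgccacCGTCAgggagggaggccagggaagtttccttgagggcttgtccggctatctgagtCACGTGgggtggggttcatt
Pck1, chr2:173152823-173153047, plus strand: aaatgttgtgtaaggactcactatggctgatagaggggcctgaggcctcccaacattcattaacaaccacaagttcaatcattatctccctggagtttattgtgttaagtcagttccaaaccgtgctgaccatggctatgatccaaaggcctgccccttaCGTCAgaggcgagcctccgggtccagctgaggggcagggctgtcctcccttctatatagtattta
Gpt2, chr8:85492326-85492575, plus strand: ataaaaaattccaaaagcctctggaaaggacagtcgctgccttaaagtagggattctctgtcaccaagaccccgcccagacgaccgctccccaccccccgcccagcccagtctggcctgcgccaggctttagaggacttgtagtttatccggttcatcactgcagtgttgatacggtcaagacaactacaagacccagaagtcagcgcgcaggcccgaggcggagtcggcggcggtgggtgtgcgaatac

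Both strands of the RefSeq windows of 300 bases (250 before and 50 after a start site) were searched for 7 motifs, and 9 of the 10 genes had at least 1 window (12 windows in all). TGACG, the core of the cAMP response element, was found in 4 of the 9 genes (Pck1, Fbp2, Slc37a4 and Ppargc1a), and 20.8% of all 32851 windows hold it. In Pck1 it lies 90 bases before the start site of the RefSeq window, a site downstream of the last base printed above. CACGTG, an E box, was found in Fbp2, Pcx and Irs2, with 7.15% of all windows. AGGTCA, the core to which many nuclear receptors bind, was found in G6pc, Pcx and Slc37a4 (16.3% of all windows), and TATAAA in G6pc and Slc37a4 (13.6%). TGTTTAC (a FOXO site, 3.65%), TGTTCT (a glucocorticoid receptor core, 19.0%) and AGGTCANAGGTCA (direct repeat, which contains AGGTCA, 0.0396%) were in none of the 9. The windows printed for Fbp1 and Gpt2 hold no match. A match only says that these letters are there.

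The last step of the pathway releases glucose. G6pc (ENSMUSG00000078650, chromosome 11, 101367561 to 101377903, plus strand) encodes the catalytic subunit of glucose-6-phosphatase. It measured 11.1, 9.66 and 19.8 CPM in control and 7.56, 5.19 and 6.93 in BBR. It measured 12.2, 10.4 and 17.2 CPM in OA and 12.7, 10.7 and 13.9 in BBR+OA. All 3 BBR libraries were below the other 9, and control replicate 3 was the highest of the 12. BBR lowered G6pc (-1.03, SE 0.22, adjusted p = 0.00199), and without control replicate 3 the change was -0.64 (adjusted p = 0.00710), with adjusted p from 3.47e-07 to 0.0261 over the alternatives. OA raised it in BBR-treated cells by 0.90 (SE 0.14, adjusted p = 1.27e-04). The differences were -0.10 (SE 0.15, adjusted p = 0.773) for BBR in OA-loaded cells and -0.03 (SE 0.22, adjusted p = 0.928) for OA alone.

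Slc37a4 (ENSMUSG00000032114, chromosome 9, 44396852 to 44402968, plus strand) encodes the transporter that carries glucose-6-phosphate to that enzyme. Its level was 22.2, 20.5 and 25.7 CPM in control and 14.4, 12.3 and 13.1 in BBR. In OA it was 33.7, 27.7 and 40.2 CPM, and in BBR+OA 28.4, 25.9 and 34.4. The BBR libraries were the lowest, control came next, and the OA and BBR+OA libraries overlapped above them. BBR lowered Slc37a4 (-0.77, SE 0.09, adjusted p = 1.29e-05). OA raised it by 0.57 (SE 0.12, adjusted p = 0.00114) without BBR and by 1.14 (SE 0.10, adjusted p = 8.92e-07) with it. With OA present the BBR difference was -0.20 (SE 0.12, adjusted p = 0.391). That difference passed under 1 of 12 alternatives, the replicate number as a block (-0.19, adjusted p = 0.0474), with adjusted p up to 0.835 over the 12. G6pc and its transporter thus both fell with BBR, while OA alone raised the transporter and left no difference in G6pc that passed.

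Of the regulators, Ppargc1a (ENSMUSG00000029167, chromosome 5, 51454250 to 51567726, minus strand) encodes PGC-1 alpha, a coactivator of gluconeogenic transcription. It had 22 to 63 counts per library. Its level was 2.65, 3.00 and 2.36 CPM in control and 2.72, 2.24 and 2.63 in BBR. In OA it was 1.53, 1.30 and 1.38 CPM, and in BBR+OA 1.42, 1.53 and 1.31. All 6 libraries with OA lay below all 6 without, the reverse of Pck1, and the libraries with and without BBR overlapped at either OA level. OA lowered it without BBR (-0.92, SE 0.21, adjusted p = 0.00291) and with it (-0.84, SE 0.22, adjusted p = 0.00672). The BBR differences were -0.06 (SE 0.19, adjusted p = 0.859) and, with OA, 0.02 (SE 0.24, adjusted p = 0.977).

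Irs2 (ENSMUSG00000038894, chromosome 8, 10984681 to 11008458, minus strand) encodes an insulin receptor substrate through which insulin restrains the pathway in liver, and FOXO1 is known to induce it. It measured 17.3, 16.8 and 15.8 CPM in control and 18.0, 16.2 and 17.4 in BBR. It measured 32.6, 35.1 and 34.7 CPM in OA and 36.7, 41.9 and 46.7 in BBR+OA. The libraries with OA were all above those without, and the BBR+OA libraries were above the OA libraries. OA raised Irs2 by 1.04 (SE 0.07, adjusted p = 4.69e-08) without BBR and by 1.27 (SE 0.09, adjusted p = 6.05e-08) with it. BBR against control gave 0.06 (SE 0.08, adjusted p = 0.603). BBR in OA-loaded cells gave 0.29 (SE 0.08, adjusted p = 0.0545), which missed the threshold, and it passed under 5 of 12 alternatives, among them DESeq2 and the removal of BBR+OA replicate 1 (0.37, adjusted p = 0.0140), with adjusted p from 0.00571 to 0.231 over the 12. The annotation places the noncoding gene 9530052E02Rik on the opposite strand over the start of Irs2.

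**Figure D2:**
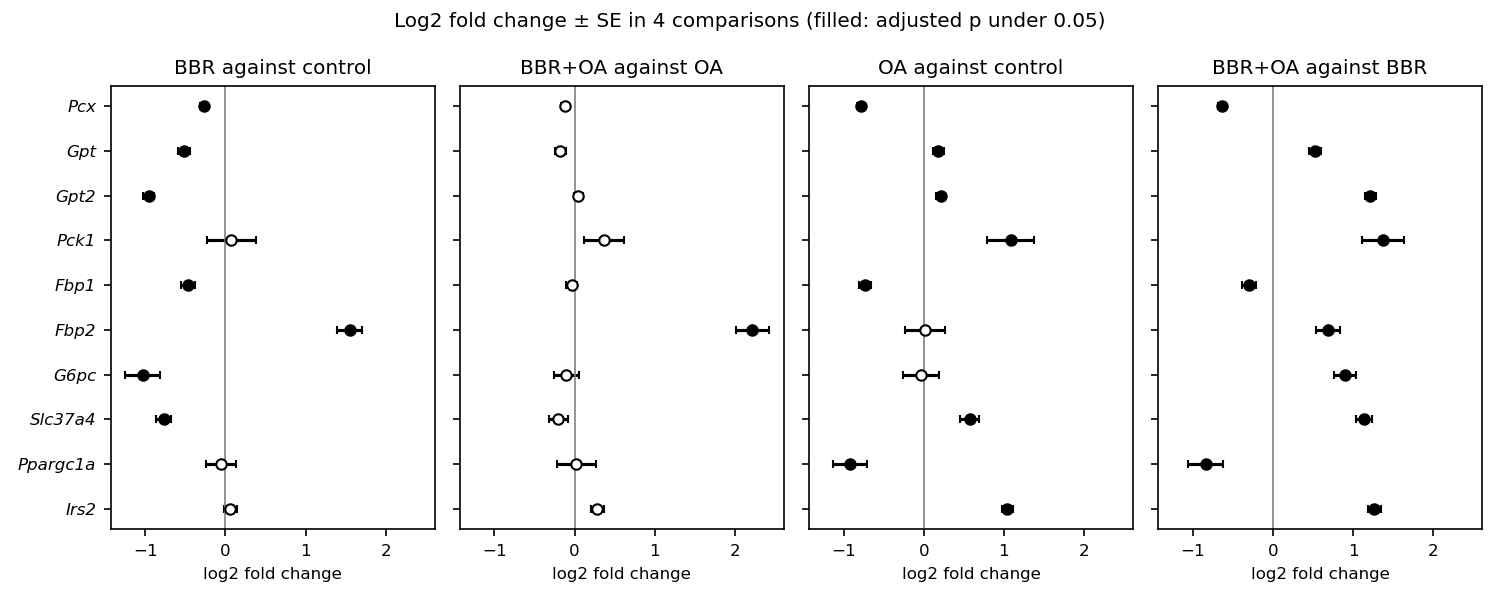
Log2 fold change with its SE (x axis) of each gene (y axis) in the 4 comparisons, with filled points for adjusted p under 0.05. BBR lowered 6 genes without OA, and with OA no fall passed the test, Fbp2 was higher with BBR in both, and all 10 points are filled for BBR+OA against BBR.

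To ask whether OA altered the response to BBR, the BBR effect with OA minus the BBR effect without OA was tested on all 12 libraries (the interaction of BBR and OA). It was positive and passed in 4 of the 10 genes, where 12.2% of 12742 genes were called over the whole table (6.87% positive and 5.31% negative). The difference was 1.02 for Gpt2 (SE 0.10, adjusted p = 5.70e-06), 0.58 for Slc37a4 (SE 0.18, adjusted p = 0.0404), 0.44 for Fbp1 (SE 0.13, adjusted p = 0.0308) and 0.35 for Gpt (SE 0.10, adjusted p = 0.0292). In each of these BBR lowered the gene without OA and had a difference that did not pass with OA. For Gpt2 the call held under all 17 alternatives, with values from 0.92 to 1.09. For Fbp1 and Slc37a4 it held in 9 of 17 and for Gpt in 11 of 17, and in the others the removal of a single library ended it. For Fbp1 these were replicates 1 and 3 of control, 2 and 3 of OA, 2 and 3 of BBR and 1 and 3 of BBR+OA (values of 0.36 to 0.42, adjusted p up to 0.101). For Slc37a4 they were replicates 1 and 3 of control, 1 and 2 of OA, 2 and 3 of BBR and 1 and 3 of BBR+OA (0.43 to 0.60, up to 0.136). For Gpt they were replicate 3 of control, 1 and 2 of OA, 1 of BBR and 2 and 3 of BBR+OA (0.28 to 0.33, up to 0.109).

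Among the other 6 genes the fitted difference was 0.94 for G6pc (SE 0.32), of the size of that of Gpt2 but with more spread between libraries, and it did not pass (adjusted p = 0.0659). For G6pc it passed under 4 of 17 alternatives. These were no filter on low counts, the replicate number as a block, and the removal of control replicate 2 (1.13) or of OA replicate 3 (1.17). It was 0.54 without control replicate 3. The adjusted p ran from 7.09e-04, with the block (0.94), to 0.185. For Fbp2 the difference was 0.68 (SE 0.29, adjusted p = 0.147), and it passed without OA replicate 3 (0.97, adjusted p = 0.0364, the lowest over the alternatives, which reached 0.326). Pck1, Irs2, Pcx and Ppargc1a had differences of 0.30, 0.23, 0.16 and 0.09 with adjusted p of 0.689, 0.214, 0.128 and 0.899. The fitted sign was thus positive in all 10 under each of the scalings tried, with a median of 0.39 over the 10 and 0.01 over all genes tested. Without control replicate 2 the difference for Ppargc1a was -0.0034. The 10 signs come from the same libraries, and the share of all genes with a positive sign was not counted. A positive sign says only that the fitted BBR difference was higher with OA than without it: it went from -0.96 to 0.05 for Gpt2, from -0.27 to -0.12 for Pcx and from 0.06 to 0.29 for Irs2.

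**Figure D3:**
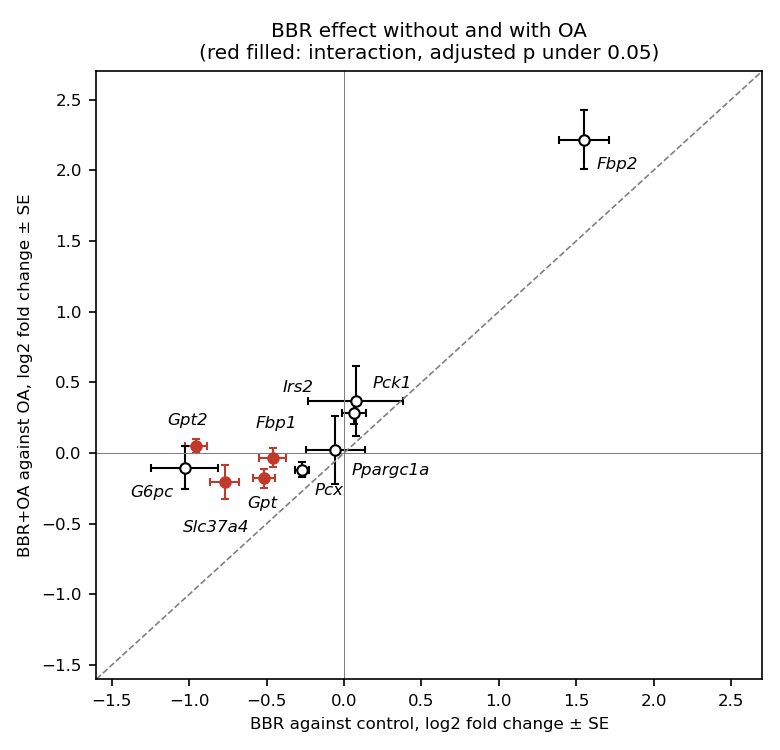
Log2 fold change ± SE for BBR against control (x axis) and for BBR+OA against OA (y axis) in each of the 10 genes, with the dashed line where both are equal and red filled points for an interaction with adjusted p under 0.05. All 10 points lie above the line, and Gpt2, Slc37a4, Fbp1 and Gpt are the red points.

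Other genes of the pathway were read from lists chosen by function. The irreversible glycolytic steps oppose gluconeogenesis, and 13 genes for their enzymes and regulators were tested. A regulator may favor or restrain these steps, so the counts give no net direction. With BBR 6 of the 13 genes rose and 4 fell, with a median of 0.21. The falls included those of Gckr, a regulatory protein of the first step (-1.44, adjusted p = 3.72e-06), Pklr, the liver pyruvate kinase (-0.63, adjusted p = 5.90e-06), and Pfkm, the muscle phosphofructokinase (-0.23, adjusted p = 0.0351). The largest rises were in Hk1 (0.83, adjusted p = 5.74e-06) and Pfkp (0.81, adjusted p = 3.08e-08), a hexokinase and a phosphofructokinase of many tissues. In OA-loaded cells 2 rose and 2 fell with BBR, and OA raised 4 and lowered 2 against control, among them Pfkm (-0.95, adjusted p = 1.19e-06), and raised 3 and lowered 6 in BBR-treated cells. The interaction passed as positive in 3 of the 13, among them Pfkm (0.49, adjusted p = 0.0101) and Pklr (0.39, adjusted p = 0.0291), and as negative in 3, Hk1 (-1.01, adjusted p = 1.89e-04), Pfkp (-0.59, adjusted p = 5.98e-05) and Pkm, the pyruvate kinase of many tissues (-0.27, adjusted p = 0.0163), with a median of -0.18 over the list.

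Of 8 reversible enzymes shared by glycolysis and gluconeogenesis, BBR raised 4 and lowered 2 (median 0.14), and OA raised 4 and lowered 2 (median 0.16). Aldoa, an aldolase of many tissues, rose by 0.43 with BBR (adjusted p = 9.91e-06) and by 0.40 with OA (adjusted p = 1.97e-05). With BBR in OA-loaded cells edgeR called none of the 8 and gave 1 at an unadjusted p under 0.05, and OA in BBR-treated cells lowered 1.

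The substrate supply list held 22 genes, 20 of which were tested (Ldhb and Aqp3 did not pass the filter on low counts). BBR raised 4 and lowered 6 of them (median -0.13), OA raised 9 and lowered 3 (median 0.12), and OA in BBR-treated cells raised 12 and lowered 1. For BBR in OA-loaded cells edgeR called none, and 3 were higher at an unadjusted p under 0.05. Gpd1, the cytosolic glycerol phosphate dehydrogenase, fell with BBR (-0.75, SE 0.09, adjusted p = 6.86e-06), as did the glycerol channel Aqp9 (-0.37, SE 0.06, adjusted p = 1.32e-04). A glycerol route list held 6 genes, of which 4 were tested, and those 4 are also counted in the substrate supply list. Of the 4, BBR lowered 3, OA lowered 1, and OA in BBR-treated cells raised 2. With OA the largest rises were in Tat, tyrosine aminotransferase (1.06, adjusted p = 3.79e-06), Mpc2, a subunit of the mitochondrial pyruvate carrier (1.02, adjusted p = 8.64e-08), and Slc7a2, a cationic amino acid transporter (0.75, adjusted p = 1.24e-06).

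Upstream signals were read next. Gcgr, the glucagon receptor, had a mean of 48.7 CPM in control, 16.8 in BBR, 19.7 in OA and 14.5 in BBR+OA. It fell with BBR (-1.53, SE 0.09, adjusted p = 1.68e-08) and with OA (-1.30, SE 0.12, adjusted p = 1.13e-06), and the interaction was 1.08 (adjusted p = 8.84e-04). Of the 12 genes of glucagon and cAMP signaling, BBR raised 1 and lowered 3 (median -0.03), OA raised 1 and lowered 5 (median -0.12), and OA in BBR-treated cells raised 1 and lowered 4. For BBR in OA-loaded cells edgeR called none, and 3 were lower at an unadjusted p under 0.05. The second largest fall with BBR was in the adenylate cyclase Adcy6 (-0.54, adjusted p = 3.37e-05), and with OA the regulatory subunit Prkar2a rose (0.45, adjusted p = 1.06e-05).

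Among 20 genes of insulin signaling, BBR raised 6 and lowered 5, BBR in OA-loaded cells lowered 1 (Socs3, -0.46, adjusted p = 0.0399), OA raised 7 and lowered 4, and OA in BBR-treated cells raised 8 and lowered 3. The medians were -0.03 for BBR and -0.04 for OA. Irs1, the paralog of Irs2, fell with BBR (-0.98, SE 0.17, adjusted p = 3.73e-04), where Irs2 showed no difference that passed. Grb14, an inhibitor of the insulin receptor, fell with BBR (-0.69, adjusted p = 5.08e-06). With OA the largest rises were in Grb10 (1.25, adjusted p = 1.31e-08), an adaptor that binds that receptor, and in Trib3 (0.77, adjusted p = 4.46e-08), a pseudokinase that binds AKT.

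Of 35 transcriptional regulators 34 were tested against control (Nr4a3 did not pass the filter). BBR raised 3 and lowered 10, BBR in OA-loaded cells raised 2 and lowered 2, and OA raised 8 and lowered 8, with medians of 0.08, -0.04 and -0.02. OA in BBR-treated cells raised 11 and lowered 9 of 33. Creb3l3, a liver CREB family factor, was higher in every comparison, at 50.3, 90.2, 85.5 and 142.7 CPM on average in control, BBR, OA and BBR+OA. The largest falls with BBR were in Nr0b2, which encodes the repressor SHP (-2.12, SE 0.31, adjusted p = 7.55e-05), in Ppargc1b, the paralog of Ppargc1a (-0.95, adjusted p = 0.0111), and in Nr1h4, the bile acid receptor FXR (-0.94, adjusted p = 1.82e-06). Hnf4a, a regulator of hepatocyte genes, fell with BBR (-0.26, SE 0.05, adjusted p = 9.29e-04), with an interaction of 0.24 (adjusted p = 0.0311). Foxo1 rose with OA by 0.48 (SE 0.06, adjusted p = 2.35e-05), and its difference with BBR was 0.13 (adjusted p = 0.155). OA lowered Nr1d1, a clock repressor (-1.25, adjusted p = 6.87e-07) and raised the glucocorticoid-responsive Klf9 by 0.80 (adjusted p = 1.94e-07).

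FOXO1 targets and genes repressed by insulin, other than the 10, were read as a list of 10. BBR raised 3 and lowered 1, BBR in OA-loaded cells raised 3, OA raised 5 and lowered 1, and OA in BBR-treated cells raised 4 and lowered 3. The medians were 0.14 for BBR and 0.12 for OA. Igfbp1, a secreted protein that insulin represses, had means of 303, 430, 766 and 858 CPM in control, BBR, OA and BBR+OA. It rose by 0.51 with BBR (SE 0.06, adjusted p = 9.87e-06) and by 1.34 with OA (SE 0.06, adjusted p = 1.01e-09), with an interaction of -0.34 (adjusted p = 0.0137). Sesn3, of the same list, fell with OA (-1.04, adjusted p = 3.79e-08). Of 10 glucocorticoid-induced genes, OA raised 8 and lowered 1, with rises of 1.97 in Mt2 (adjusted p = 1.32e-10), 1.75 in Mt1 (adjusted p = 4.68e-10) and 1.40 in Sgk1 (adjusted p = 3.27e-08) and a fall of -1.70 in Tdo2 (adjusted p = 5.39e-09). Their median was 0.86 with OA. BBR raised 4 and lowered 5 of them (median -0.06), BBR in OA-loaded cells raised 1 and lowered 1, and OA in BBR-treated cells raised 8 and lowered 1. None of these lists was tested as a list, and the share of all genes called in each comparison is given above.

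**Figure D4:**
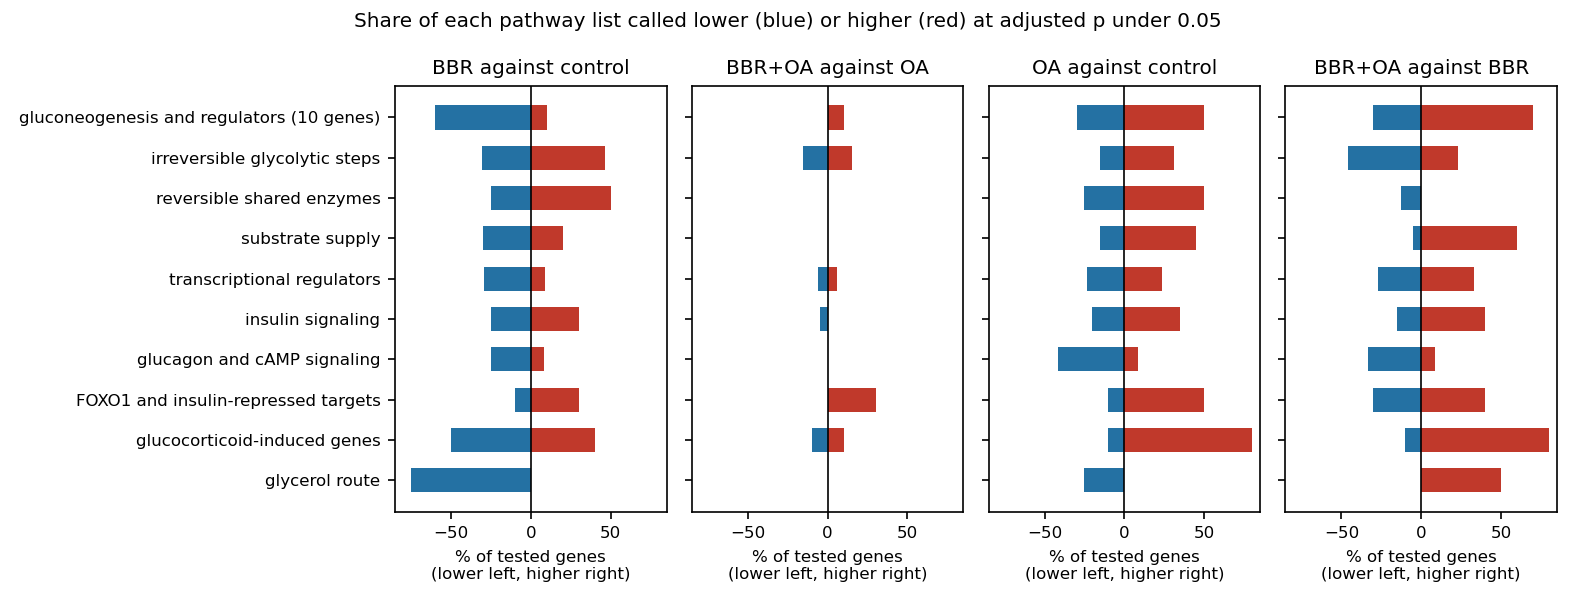
Share of the tested genes of each list (y axis) called lower (blue, to the left) or higher (red, to the right) at adjusted p under 0.05, in percent (x axis), for the 4 comparisons. Lists can share genes, and the tested glycerol route genes are all in the substrate supply list too. The 10 genes lean to the left for BBR against control, at most 4 genes of a list are called for BBR+OA against OA, and the glucocorticoid-induced list reaches furthest to the right with OA.

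The genes whose levels most resembled those of 3 of the members were found among 9716 genes of at least 5 CPM on average, by the root mean square difference of centred log2 CPM over the 12 libraries. For Pck1 they were Herpud1 (0.18), Cers6 (0.18) and Adtrp (0.20), all higher with OA. For G6pc they were Gys2, the liver glycogen synthase (0.18), Slc25a47 (0.20) and Fndc4 (0.24). Gys2 averaged 7.20 CPM in control, 3.06 in BBR, 8.21 in OA and 7.22 in BBR+OA. For Fbp2 the nearest genes were farther away, among them Acot2, a mitochondrial thioesterase (0.43), and Gm13889 (0.55). Acot2 averaged 8.27, 21.6, 14.2 and 37.0 CPM in control, BBR, OA and BBR+OA. For this ranking a small constant was added to each CPM before the log, which narrows differences at low levels such as those of Pck1. The distances were not scaled to the range of a gene.

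Per unit of length, over the 12 libraries, Gpt2 was the most abundant of the 10 genes (49.4 FPKM), followed by Fbp1 (33.6), Pcx (21.7), Gpt (17.0), Slc37a4 (13.6), G6pc (4.74), Irs2 (4.32), Fbp2 (3.94), Pck1 (0.580) and Ppargc1a (0.464). The ranges of the group means overlapped between most neighbours in this order, but not between Slc37a4 (7.82 to 17.9 FPKM) and G6pc (2.73 to 5.66) or between Fbp2 and Pck1. Gpt2 ranged from 26.3 to 60.7 FPKM between groups and Fbp1 from 26.9 to 46.7, and Irs2 ranged from 2.67 to 6.55 and Fbp2 from 1.62 to 7.66. Pck1 and Ppargc1a likewise overlapped, at 0.343 to 0.917 and 0.297 to 0.653 FPKM. The highest group mean was 4.74 times the lowest for Fbp2, 2.72 times for Pck1, 2.55 for Slc37a4, 2.51 for Irs2, 2.34 for Gpt2 and 2.06 for G6pc, all on the CPM scale, and between 1.63 and 1.90 for Gpt, Fbp1, Pcx and Ppargc1a.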

How the data were processed

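RNA of 12 libraries was enriched for poly(A) and sequenced on an Illumina HiSeq per the labels. The authors deposited, for each library, estimated counts and FPKM of 22471 features. The genome build in the submitters' processing notes is mm10, and the aligner, the quantification program and its strand setting are not given in the sources used here. The estimated counts were rounded (none of the 10 genes had a fractional count), filtered by filterByExpr (minimum count 10), scaled by TMM and tested in edgeR 4.0.16 (R 4.3.3) by the two-sided quasi-likelihood test, on the 6 libraries of a comparison or on all 12 for the interaction, with Benjamini-Hochberg adjustment over all genes tested and calls at an adjusted p under 0.05. Each SE printed or drawn is the absolute log2 fold change divided by the square root of the F statistic of that test. It is an approximation and was not estimated by the fit itself. The deposited FPKM served only to compare levels between genes. Alternatives were RLE and upper quartile scaling, DESeq2 1.42.0, no filter on low counts, a replicate block, 1 model over all 12 libraries, each library left out, and an unadjusted p under 0.05 with at least a 2-fold change. A count of 0 allows up to 3 counts, 0.127 to 0.194 CPM, which covers counting error only. Coordinates come from GENCODE M21, in which 99.7% of Ensembl identifiers were found. The fits were run on simulated counts with known changes and the same spread between libraries for every gene. That checks the code and not the calls on the 10 genes. The 10 genes, the lists and the rule for named genes (all 10 genes, up to 4 called genes of largest change per list and comparison, a fixed set of 7 and 3 genes of like pattern for each of Pck1, G6pc and Fbp2) were chosen with earlier results of these data known. Some genes that this rule names are not reported here.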

Additional observations from a re-analysis of the deposited data

Results flagged for a closer look

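The 4 genes in which the BBR effect differed between cells with and without OA drew a closer look because the test of that difference passed: Gpt2 (1.02 on the log2 scale), Slc37a4 (0.58), Fbp1 (0.44) and Gpt (0.35). The first was called under every alternative run, and the other 3 lost the call when single libraries were left out.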

How the results depend on the processing

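Over 699 combinations of a gene, a comparison and an alternative, 638 kept the side of the threshold, 50 lost and 11 gained a call, and no called value changed sign. Some values that were not called did change sign. G6pc with OA against control, for example, went from -0.03 to 0.37 without control replicate 3. Of the 50, the 2-fold rule accounts for 20 by its construction and the removal of a library for 28. DESeq2 and upper quartile scaling account for 1 each, both of them Gpt with OA against control. With the 2-fold rule and an unadjusted p, 297, 73, 624 and 567 genes were called in BBR against control, BBR+OA against OA, OA against control and BBR+OA against BBR, and 292 in the interaction, of which 2, 1, 2, 4 and 1 of the 10 genes. For BBR+OA against OA, 2 of the 10 were called with DESeq2, with no filter on low counts and in 1 model over all 12 libraries, Irs2 being added. With no filter 844 genes were called there. Leaving out single libraries gave 216 to 632 genes and 1 to 2 of the 10 in that comparison (216 without BBR+OA replicate 3, 230 without BBR+OA replicate 2, 249 without OA replicate 2, 373 without BBR+OA replicate 1). In the interaction it gave 1027 to 1679 genes and 1 to 5 of the 10 (1027 without OA replicate 2, 1028 without BBR replicate 2, and 1 of the 10 without control replicate 3, OA replicate 2 or BBR+OA replicate 3). Upper quartile scaling called 2077 genes higher and 3216 lower for OA against control, where TMM gave 2643 and 2669, and 1976 and 2870 for BBR+OA against BBR, where TMM gave 2496 and 2330. It changed 1 call among the 10 genes, that of Gpt with OA.

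Replicate numbers are shared by the groups, but nothing says that they mark a mouse or a day. The deviations of same-numbered libraries from their group means correlated at 0.008 to 0.180, with 8 of 18 over 0.1, against -0.147 to 0.066 for other pairs, and all 12 libraries were closest to their own number, a hint from the data and not from the design. With the replicate number as a block, 4154, 1333 and 6628 genes were called in BBR against control, BBR+OA against OA and OA against control, 5280 in BBR+OA against BBR and 2265 in the interaction. The block called 3 of the 10 genes for BBR+OA against OA, adding Irs2 (adjusted p = 0.00571) and Slc37a4 (-0.19, adjusted p = 0.0474), called G6pc in the interaction (adjusted p = 7.09e-04), and changed no other call.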
